A study of Mus musculus with 4 samples.

Results

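Blood endothelial cells line the blood vessels of the ovary. In single-cell libraries of ovaries from prepubertal mice they were taken here as cells with at least 1000 UMIs (molecular tags that count each captured transcript once), at most 20% mitochondrial UMIs, a UMI of at least 4 of the 7 endothelial genes Pecam1, Cdh5, Cldn5, Flt1, Kdr, Egfl7 and Emcn, and no UMI of Prox1 (a lymphatic endothelial gene), Ptprc (a leukocyte gene), Fshr (a granulosa gene) or Lum (a stromal gene). This gave 364 cells of 30523 that passed the depth and mitochondrial limits, or 1.19% (exact Clopper-Pearson 95% interval 1.07 to 1.32%). They held 6204048 UMIs in all, between 1135 and 104863 per cell.

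The mice were 25 days old and fell into 4 groups: a control group injected with PBS or saline, a doxorubicin group (3 mg/kg), a group that got this dose of doxorubicin together with anti-Müllerian hormone (AMH, the recombinant human protein, 0.75 mg/kg), and an AMH group that got the hormone alone. Dosing was weekly with 2 doses, and the ovaries were collected 4 hours past the second. Each group was 1 library made from a pool of 1 ovary from each of 5 animals, digested with enzymes and passed through a microfluidic device that tags the 3′ ends of transcripts. Strain and route of dosing are not given in the sources used here. A single library stands for each group, so group differences had no test: every value below describes these 4 libraries, intervals cover counting error only, and the spread between animals was not measured.

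Endothelial cells form a single layer between blood and tissue, held together by junctions of Cdh5 and Cldn5 and kept alive by VEGF, the vascular growth factor, through its receptors Kdr and Flt1. Arterial, capillary and venous segments carry different genes, and in the ovary vessels grow and regress with each wave of follicles. Doxorubicin is a chemotherapy drug that poisons topoisomerase II, the enzyme that relieves twisted DNA, and so breaks DNA, which stabilises the transcription factor p53. AMH is a hormone of the TGF-beta family, made by granulosa cells of growing follicles, that signals through its own receptor Amhr2, type 1 receptors and SMAD proteins.

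The libraries held 9202 (control), 7141 (doxorubicin), 7818 (doxorubicin+AMH) and 9478 (AMH) deposited cells, with 138647495 to 178279122 UMIs each. Pairs of libraries shared between 11 and 24 cell barcodes. The counts of members were 134 of 8588 passing cells in the control library, 110 of 6406 with doxorubicin, 61 of 6983 with doxorubicin+AMH and 59 of 8546 with AMH. Their median depths were close, at 9979, 11214.5, 10487 and 12012 UMIs per cell in the same order.

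Members made up 1.56% (95% interval 1.31 to 1.85%) of the control library and 1.72% (1.41 to 2.07%) of the doxorubicin library. They made up 0.874% (0.669 to 1.12%) of the doxorubicin+AMH library and 0.690% (0.526 to 0.890%) of the AMH library. The intervals of both libraries that received AMH lay below those of both that did not, and the intervals within each of these pairs overlapped. The exclusion of Prox1, Ptprc, Fshr and Lum removed 673 of 1037 cells with at least 4 endothelial genes, of which 418 held Prox1 and 340 held Lum, and 100 were removed by a single UMI. Excluded cells were deep, with library medians between 31579 and 49864 UMIs, so a cell's depth bears on whether it met the rule. When every cell was thinned to 5000 UMIs, leaving out 833 to 1677 shallower cells per library, the shares were 2.02% (1.71 to 2.36%) in control, 2.01% (1.66 to 2.41%) with doxorubicin, 0.898% (0.673 to 1.17%) with doxorubicin+AMH and 1.06% (0.834 to 1.33%) with AMH. Before the exclusion, cells with at least 4 endothelial genes made up 4.23% (3.81 to 4.67%), 3.79% (3.34 to 4.29%), 2.46% (2.11 to 2.85%) and 3.03% (2.68 to 3.42%), and here the intervals of the doxorubicin and AMH libraries overlapped. A share of captured cells also depends on how well vessels were dissociated, which was not tested.

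**Figure D1:**
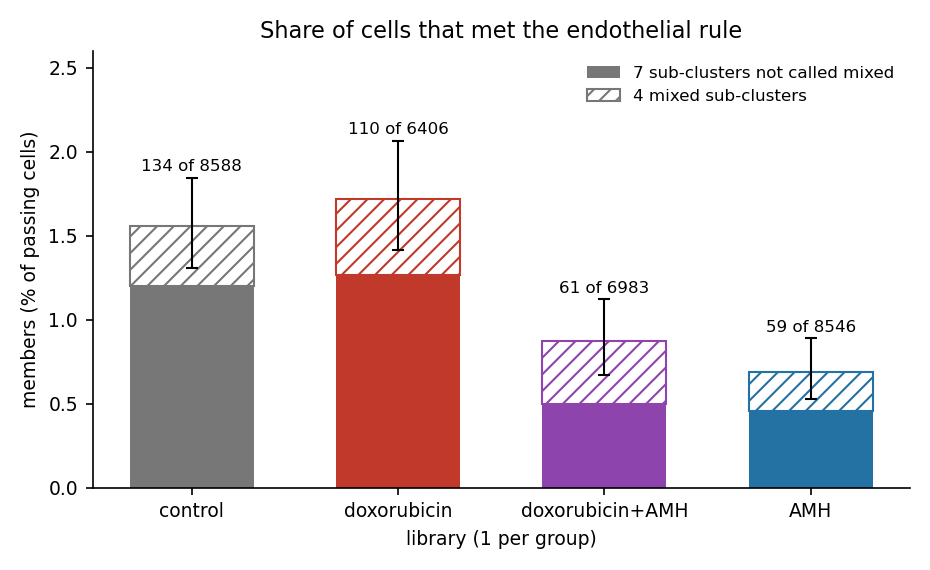
Share of passing cells that met the endothelial rule in each library (y axis, percent), with the hatched part for members in 4 sub-clusters led by genes of other cell types. Error bars are exact 95% Clopper-Pearson intervals of the whole share. The doxorubicin+AMH (0.874%) and AMH (0.690%) bars lie below those of the control (1.56%) and doxorubicin (1.72%) libraries.

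The label was checked on a list of 26 further endothelial genes that the rule did not name, among them the receptor kinases Tie1 and Tek, the transcription factors Erg, Fli1 and Sox17, and the junction gene Esam. All 26 were at least 2-fold higher in members than in the other passing cells, measured as mean CPM (UMIs of a gene divided by all UMIs of the cells, scaled to 1000000) over the 4 libraries. Cells chosen on endothelial genes had to carry more of the genes found with them, so this describes the choice and tests nothing. The 26 genes also did not set members apart from Prox1-positive cells that otherwise met the rule. Those cells held 6447, 6266, 5911 and 4870 CPM of the list (control, doxorubicin, doxorubicin+AMH, AMH). Members held 6756, 6407, 5504 and 5256 CPM in the same order. At the edge of the rule the match was poor. The 41 members with exactly 4 of the 7 genes held a median of 4.17 UMIs of the 26 genes per 10000, near the 2.00 of the 175 cells with 3 of the 7 genes, which stayed out. The 33 members with 5 genes held 60.0, the 76 with 6 genes 81.6 and the 214 with all 7 genes 80.8 per 10000. The 4-gene cells were instead richer in the 9 stromal markers, at a median of 9.96 UMIs per 10000 against 0.15 to 0.43 in members with 6 or 7 genes.

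Of 3594 genes that averaged 50 CPM or more in members, 607 (16.9%) had a mean CPM at least 2 times that of all other passing cells (580, or 16.1%, with 5 CPM added to both), and these 607 are called endothelial-enriched below. The name rests on the ratio alone and can take in genes of other cell types. With 5 CPM added, 2 of 7 epithelial and 3 of 11 mural markers were also at least 2-fold higher in members. The 20 genes with the highest such ratios included Ctla2a (919 against 14.9 CPM), the adhesion receptor gene Selp (58.7 against 1.03 CPM), Vwf, the gene of the clotting protein von Willebrand factor (71.4 against 1.28 CPM), Ly6c1 (401 against 7.82 CPM), the VEGF receptor gene Flt1 (963 against 19.4 CPM), the lipase anchor gene Gpihbp1 (90.8 against 2.06 CPM), the phosphatase gene Ptprb (568 against 14.95 CPM) and Abcb1a (372 against 10.1 CPM). Abcb1a encodes P-glycoprotein, a pump that exports doxorubicin.

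The promoters of 3 endothelial genes are printed here because the same short run of letters recurs in the promoters of endothelial genes. ETS-family transcription factors, to which the endothelial regulators Erg and Fli1 belong, bind sites with a GGAA core. The letters AGGAAG were searched on both strands (the reverse complement reads CTTCCT) in windows from 250 bases before to 50 bases after each gene start in mouse RefSeq (GRCm38.p6, which is mm10). They occurred in 38.4% of 27025 genes with a promoter in the table and in 38.4% of the matched genes that passed the CPM filter. Among endothelial-enriched genes they occurred in 211 of 461 matched (45.8%), among the 26 further endothelial genes in 10 of the 13 matched (76.9%), and among the 20 genes with the highest ratios in 10 of the 11 matched (90.9%). A gene with several promoters counted if any of them matched. Counted by promoter, the shares were 35.4% of all, 33.6% for genes that passed the filter and 37.8% for endothelial-enriched genes. They were 62.5% for the 26 further genes and 84.6% for the 20 highest. A second motif, the GATA-type letters AGATAA (reverse complement in the other direction TTATCT), occurred in 12.7% of all genes, 6.70% of those that passed the filter, 8.89% of endothelial-enriched genes and 4 of the same 13 (30.8%). Of the 7 genes of the rule 5 were matched, 3 with the ETS-type and 0 with the GATA-type letters. Each window below holds 2 matches of the ETS-type letters, shown in capitals, and none of the GATA-type letters. Flt1 is at chr5:147725962-147726261 (minus strand), Emcn, the gene of the endothelial surface protein endomucin, at chr3:137340828-137341127 (plus strand) and Tie1 at chr4:118489800-118490099 (minus strand), each written 5′ to 3′ along its gene.
Flt1: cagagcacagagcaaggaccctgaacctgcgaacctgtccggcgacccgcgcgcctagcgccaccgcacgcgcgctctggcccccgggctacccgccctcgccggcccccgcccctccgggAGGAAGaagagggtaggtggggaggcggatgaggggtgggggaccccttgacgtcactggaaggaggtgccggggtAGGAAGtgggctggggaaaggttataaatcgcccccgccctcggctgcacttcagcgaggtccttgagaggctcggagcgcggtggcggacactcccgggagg
Emcn: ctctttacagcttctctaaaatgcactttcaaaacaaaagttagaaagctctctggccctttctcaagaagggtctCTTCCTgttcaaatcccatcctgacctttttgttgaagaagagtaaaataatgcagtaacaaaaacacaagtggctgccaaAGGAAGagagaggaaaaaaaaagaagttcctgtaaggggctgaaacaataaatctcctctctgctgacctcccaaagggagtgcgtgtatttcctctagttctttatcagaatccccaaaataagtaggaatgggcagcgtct
Tie1: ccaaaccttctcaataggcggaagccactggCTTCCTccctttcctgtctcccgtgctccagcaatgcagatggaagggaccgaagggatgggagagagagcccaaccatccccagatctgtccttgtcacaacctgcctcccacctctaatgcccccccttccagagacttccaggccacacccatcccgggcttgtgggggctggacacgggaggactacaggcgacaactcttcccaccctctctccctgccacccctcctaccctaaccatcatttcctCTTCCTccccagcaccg
A match describes the letters and shows no binding. RefSeq starts can be alternative ones: that of Abcb1a lies far upstream of its start in GENCODE M21, so its window is not shown. Among these genes, Tie1 stood at 133 CPM in control, 149 with doxorubicin, 127 with doxorubicin+AMH and 97.6 with AMH, and Flt1, in that order, at 1154, 996, 828 and 873 CPM.

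Members were not uniform. Clustering them on their own gave 11 sub-clusters of 20 to 59 cells. Of these, 7 with 258 cells were not led by markers of other cell types. Sub-cluster 8 (26 cells) was led by Nebl, Prdm16 and Stmn2 and carried the arterial genes Sema3g, Bmx and Vegfc; its summed level of the 14 arterial markers was 4896 CPM, against 385 to 746 CPM in the other 6. Sub-cluster 11 (20 cells) was led by Fabp4, Cd36 and Gpihbp1, genes of fatty acid uptake in capillaries, with 27522 CPM of the 13 capillary markers. Sub-cluster 9 (23 cells) was led by Aqp1, Lrg1 and Lepr with Vwf, and sub-cluster 2 (49 cells) by Kirrel3, Robo2 and Fcgr2b with Selp; they had the highest levels of the 11 venous markers, at 2966 and 1730 CPM. Sub-cluster 4 (37 cells) was led by the division genes Ube2c and Cenpf and by Esm1, a gene of sprouting tip cells. Sub-clusters 1 (59 cells; Gm35533, Gpm6b, Fut2) and 3 (44 cells; Rundc3b, Thrsp, Prickle2) are named here by genes of no segment list. In sub-cluster 1 the capillary gene Ly6c1 was the leading gene of rank 4, and the capillary markers summed to 2178 CPM. They summed to 2531 CPM in sub-cluster 9, whose leading gene Aqp1 is on the capillary list too. No listed endothelial marker was among the 10 leading genes of sub-cluster 3, although its level of the 26 endothelial genes was 8727 CPM. These genes defined the groups and are a description of them.

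The other 4 sub-clusters, with 106 cells, were led by genes of other cell types and are called mixed below. Sub-cluster 5 (29 cells; Rgs5, Abcc9, Notch3) held 2677 CPM of the 11 markers of mural cells, the contractile cells around vessels, beside 6258 CPM of the 26 endothelial genes. Sub-cluster 6 (29 cells; Igfbp5, Lgals7, Acta2) held 3704 CPM of mural, 1404 CPM of stromal and 1458 CPM of epithelial markers. Sub-cluster 7 (27 cells; Ccl21a, Mmrn1, Flt4) held 4777 CPM of the lymphatic markers, with no UMI of Prox1 by the rule and a median of only 2614 UMIs per cell; 1 cell of the doxorubicin+AMH library brought nearly all of its haemoglobin UMIs. The lymphatic sum came from a minority of its cells. Per 10000 UMIs its cells had medians of 0 lymphatic markers, 8.81 granulosa markers and 46.2 of the 26 endothelial genes. Sub-cluster 10 (21 cells; Cyp17a1, Cyp11a1, Aldh1a1) held 4511 CPM of the markers of steroid-making theca cells and only 516 CPM of the 26 endothelial genes. Mixed cells were 31 of 134 members of the control library (23.1%), 29 of 110 with doxorubicin (26.4%), 26 of 61 with doxorubicin+AMH (42.6%) and 20 of 59 with AMH (33.9%). A sub-cluster was called mixed when its 10 leading genes held more markers of other cell types than endothelial ones and its median level of the 26 endothelial genes was under 75% of that of all members, a rule made after the data were seen. Because the mixed share differed between libraries, values are for all members, and many are given again for the 103, 81, 35 and 39 cells outside the mixed sub-clusters.

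**Figure D2:**
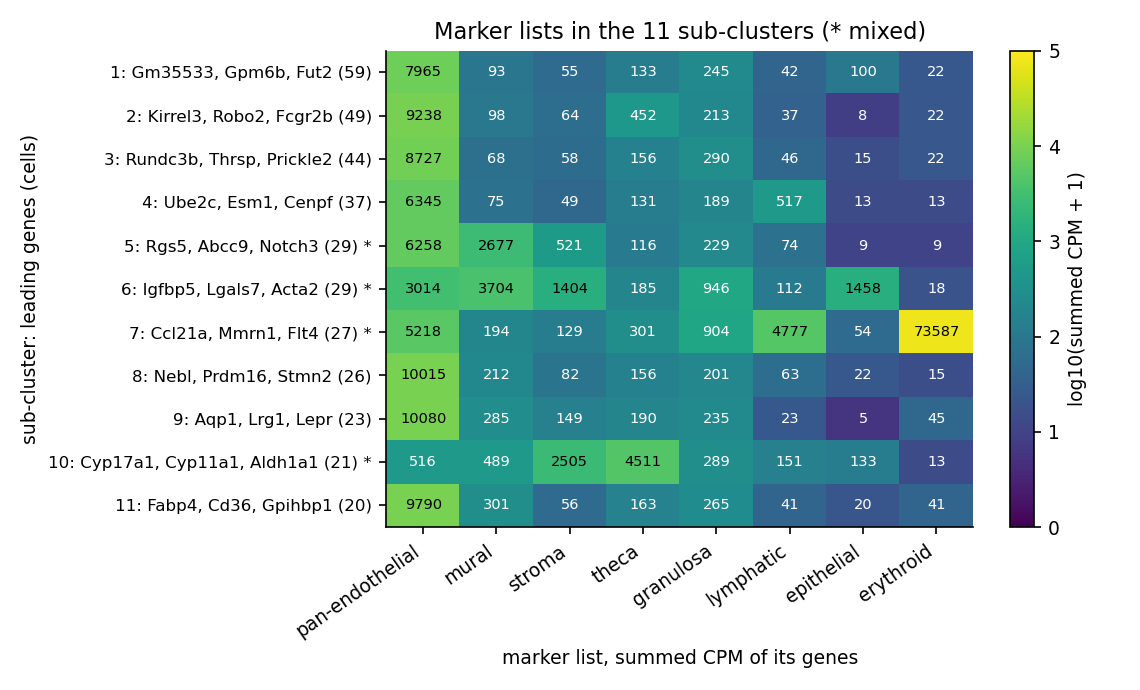
Summed CPM of 8 marker lists (columns) in the 11 sub-clusters of members (rows, with leading genes and cell numbers), coloured on a log10(summed CPM + 1) scale and printed as summed CPM; an asterisk marks mixed sub-clusters. Mural markers reach 2677 and 3704 CPM in sub-clusters 5 and 6, lymphatic markers 4777 CPM in 7 and theca markers 4511 CPM in 10.

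The first question of the design is what doxorubicin did, and it can be asked in the absence of AMH (doxorubicin against control) and in its presence (doxorubicin+AMH against AMH); these pairs share no library. UMIs of members were summed per library, and a gene was called when log2(CPM + 5) differed by at least 2-fold among the 3594 genes. Doxorubicin against control gave 10 genes called higher (0.278%) and 35 called lower (0.974%). Doxorubicin+AMH against AMH gave 28 called higher (0.779%) and 40 called lower (1.11%). The median log2 ratio of all 3594 genes was -0.01 and 0.02. Outside the mixed sub-clusters, with 3574 genes, the first pair gave 3 called higher (0.0839%) and 19 lower (0.532%) and the second 32 higher (0.895%) and 56 lower (1.57%). In all other passing cells the 3594 genes gave 1 higher (0.0278%) and 2 lower (0.0556%) in the first pair, and 5 higher and 5 lower (0.139% each) in the second. No gene was called higher in both pairs (0%). The 10 genes called lower in both (0.278%) included Cyp17a1, Cyp11a1, Hsd3b1, Fdx1, Aldh1a1, Elovl6, Acsbg1, Prss35 and Pde10a, of which the first 4 are theca markers of steroid synthesis; none of the 10 was endothelial-enriched. Hsd3b1 stood at 400 CPM in control, 37.5 with doxorubicin, 62.1 with doxorubicin+AMH and 203 with AMH, and 54.1% of the control UMIs came from 1 cell. Without the mixed sub-clusters 1 of 3574 genes, Ptprd, was called lower in both pairs (0.0280%), so the theca genes left the list together with the mixed cells.

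Targets of p53 gave a result that depended on which members were summed. Cdkn1a (chr17:29090976-29100727, mm10), which encodes the cell-cycle inhibitor p21, stood at 85.9 CPM in the control members (194 UMIs, exact Poisson 95% interval 74.2 to 98.8 CPM), 163 CPM with doxorubicin (318 UMIs, 146 to 182 CPM), 71.7 CPM with doxorubicin+AMH (67 UMIs, 55.6 to 91.1 CPM) and 57.3 CPM with AMH (61 UMIs, 43.8 to 73.6 CPM). The doxorubicin library was the highest, and its log2 ratio to control was 0.93 (95% counting interval 0.67 to 1.19). Outside the mixed sub-clusters Cdkn1a stood at 83.7, 89.6, 68.0 and 75.5 CPM in the same order, and the log2 ratio of doxorubicin to control was 0.10 (-0.29 to 0.49). In the mixed members it stood at 88.9 CPM in control and 314 CPM with doxorubicin, a log2 ratio of 1.82 (1.44 to 2.21). All other passing cells of the ovary had 31.1 CPM in control and 141 CPM with doxorubicin, a log2 ratio of 2.18 (2.14 to 2.23). In the doxorubicin members 109 of the 318 UMIs came from the 7 cells of sub-cluster 6, at 522 CPM, and 61 from the 8 cells of sub-cluster 5, at 286 CPM. A single cell held 23.3% of the 318. Among sub-clusters that were not mixed, Cdkn1a was highest in the Fabp4-led sub-cluster 11 in the control library too, at 374 CPM in control (10 cells) and 229 CPM with doxorubicin (8 cells).

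Other p53 targets varied in how far they depended on the members summed. Ccng1, the gene of cyclin G1, stood at 12.8 CPM in control members, 47.8 with doxorubicin, 14.98 with doxorubicin+AMH and 9.39 with AMH. The log2 ratio of doxorubicin to control was 1.90 (1.28 to 2.55) in all members, 1.02 (0.11 to 1.99) outside the mixed sub-clusters, where 32 UMIs were set against 16, and 1.60 in all other cells. Of the 32 UMIs of Ccng1 outside the mixed sub-clusters, 14 lay in the 8 cells of sub-cluster 11, at 146 CPM, against 1 UMI in its 10 control cells. Bax, a gene of programmed cell death, stood at 110, 167, 124 and 116 CPM in members, and outside the mixed sub-clusters at 115, 156, 124 and 127 CPM, a log2 ratio of doxorubicin to control of 0.45 (0.14 to 0.76) beside 0.54 in all other cells. For Ei24 the log2 ratio was 0.68 (0.17 to 1.20) outside the mixed sub-clusters and 0.52 in the other cells. For Mdm2, the gene of the ligase that degrades p53, it was 0.22 (-0.29 to 0.73) and 0.64, and for the death receptor gene Eda2r 0.67 (-0.30 to 1.67) and 2.29. The intervals of Cdkn1a, Mdm2 and Eda2r outside the mixed sub-clusters thus include 0, those of Ccng1, Bax and Ei24 do not, and the intervals of Cdkn1a and Eda2r lie wholly below the ratios of the other cells.

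**Figure D3:**
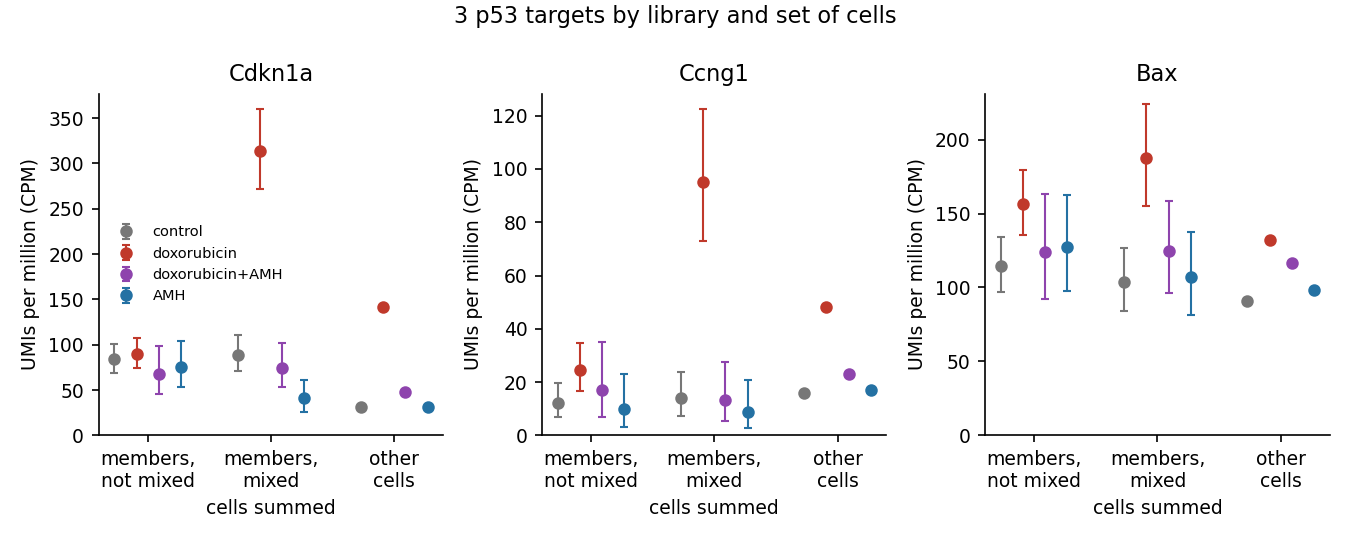
CPM (y axis) of Cdkn1a, Ccng1 and Bax in each library, for members outside the mixed sub-clusters, mixed members and all other passing cells; points are summed CPM and bars exact 95% Poisson intervals, smaller than the points in the other cells. Cdkn1a of the doxorubicin library is at 89.6 CPM in members outside the mixed sub-clusters, 314 CPM in mixed members and 141 CPM in the other cells.

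Over the whole list of 30 p53 targets, the summed level in members was 1443 CPM in control, 1765 with doxorubicin, 1374 with doxorubicin+AMH and 1345 with AMH. Members outside the mixed sub-clusters had 1455, 1570, 1225 and 1462 CPM, and in all other cells 1091, 1481, 1072 and 1000 CPM. More list genes were above control than below in the doxorubicin library in each set: 21 of 30 in members, 20 of 30 outside the mixed sub-clusters and 23 of 30 in the other cells. Of all genes that passed, 48.8%, 50% and 38.8% were above 0 in these sets. Against AMH, 18 of 30 were higher in the doxorubicin+AMH members, and 12 of the 29 detected outside the mixed sub-clusters, beside 53.3% and 47.1% of all genes. The list median could use only the 5 genes that passed the CPM filter; it was 0.57 for doxorubicin against control, with 0 of the 5 called, and 0.09 outside the mixed sub-clusters. Of these 5, Plk2 stood at -0.00067 and Btg2 at 0.058 in all members, on the log2(CPM + 5) scale. Phlda3, which is not among the 5, stood at 0.87.

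Genes of cell death and DNA repair differed by less than 2-fold where they passed the filter. Of 21 regulators of cell death, which include the protective Bcl2 and Mcl1 as well as the death-promoting Bax, 15 were higher with doxorubicin than in control, in all members and again outside the mixed sub-clusters, beside 10 in all other cells. The median of the 7 that passed the filter was 0.35, 0.37 outside the mixed sub-clusters and 0.08 in the other cells, and 0 were called. In the pair with AMH 11 of the 21 were higher and the median was 0.08; as above, 48.8% and 53.3% of all genes were higher in these pairs. Of 26 DNA repair genes 16 were higher with doxorubicin than in control and 17 higher in doxorubicin+AMH than in AMH, with summed levels of 491 CPM in control, 590 with doxorubicin, 502 with doxorubicin+AMH and 433 with AMH. Only 2 of the 26 passed the CPM filter, so most repair genes lay too low in these few cells to compare singly.

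Of the 12 genes of drug handling 3 were at least 2-fold higher in members than in other cells, the efflux pump genes Abcb1a, Abcb1b and Abcg2, while the median log2 ratio of the 12 was -0.19, beside 0.04 for all 3594 genes. Besides Abcb1a, members carried 9.9-fold more Abcg2, a second efflux pump, than other cells. Abcb1a stood at 414 CPM in control, 417 with doxorubicin, 366 with doxorubicin+AMH and 290 with AMH, and Abcg2 at 287, 292, 250 and 188 CPM. For doxorubicin against control the log2 ratio was 0.01 (-0.13 to 0.15) for Abcb1a and 0.03 (-0.14 to 0.19) for Abcg2, so both pumps were level within counting error. Both were lowest in the AMH library, with log2 ratios to control of -0.51 (-0.70 to -0.33) for Abcb1a and -0.61 (-0.85 to -0.38) for Abcg2; outside the mixed sub-clusters these were -0.31 (-0.54 to -0.09) and -0.46 (-0.75 to -0.19). Top2b, the topoisomerase II of non-dividing cells, stood at 115, 118, 111 and 123 CPM. Of the 12 genes of the drug-handling list 5 passed the filter and 0 were called for doxorubicin against control.

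Among endothelial-enriched genes the pairs that share no library were read together, by the ratio closer to 0 of the 2. Only genes whose 2 ratios had the same sign were ranked. That the pairs agree for the genes below thus follows from the choice and tests nothing. The intervals take no account of this choice. The 8 highest included Sox7, Sh2d3c, Casp8, Fut2, Lpar6 and Gm13889, and none of the 8 reached 2-fold in either pair. Sox7, an endothelial transcription factor, stood at 72.6, 109, 80.3 and 56.3 CPM, with log2 ratios of 0.59 (0.29 to 0.90) without AMH and 0.51 (0.00 to 1.03) with it. Both doxorubicin libraries were thus above both others for Sox7, and the second interval reaches 0; without the mixed cells the ratios were 0.48 (0.14 to 0.81) and 0.38 (-0.23 to 0.995). Sh2d3c, a signalling adaptor gene that overlaps a gene on the other strand, stood at 54.0 CPM in control, 78.1 with doxorubicin, 74.9 with doxorubicin+AMH and 46.9 with AMH, with ratios of 0.53 (0.18 to 0.89) and 0.67 (0.13 to 1.23), beside -0.18 and -0.22 in all other cells; without the mixed cells they were 0.56 (0.17 to 0.96) and 0.75 (-0.0091 to 1.52). Casp8, the protease that starts cell death from death receptors, stood at 46.5, 63.7, 61.0 and 37.6 CPM, with ratios of 0.46 (0.07 to 0.84) and 0.70 (0.09 to 1.32), beside -0.08 and -0.07 in all other cells. Without the mixed cells the ratios of Casp8 were 0.40 (-0.05 to 0.84) and 0.69 (-0.10 to 1.502), so both intervals then include 0.

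The 8 lowest were Eln, Trim69, Fbln2, Hdac9, Bin3, Gm11290, Rflnb and Maoa. Eln, the gene of elastin in the walls of arteries (chr5:134702593-134747323), stood at 89.0 CPM in control, 45.7 with doxorubicin, 40.7 with doxorubicin+AMH and 77.0 with AMH. Both doxorubicin libraries were below both others, with log2 ratios of -0.96 (-1.34 to -0.59) and -0.92 (-1.52 to -0.35). The ratios of Eln outside the mixed sub-clusters were -2.01 (-2.56 to -1.502) and -0.61 (-1.42 to 0.17). Fbln2, a matrix protein that binds elastin fibres (chr6:91212455-91272540), stood at 125, 68.9, 103 and 141 CPM, with ratios of -0.86 (-1.17 to -0.56) and -0.45 (-0.84 to -0.08); outside the mixed sub-clusters they were -1.03 (-1.39 to -0.68) and -0.60 (-1.13 to -0.09). Trim69 was called lower in the second pair only, with log2 ratios of -0.59 (-0.99 to -0.20) and -1.41 (-2.11 to -0.76), and -0.49 (-0.92 to -0.07) and -1.14 (-2.18 to -0.18) without the mixed cells.

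**Figure D4:**
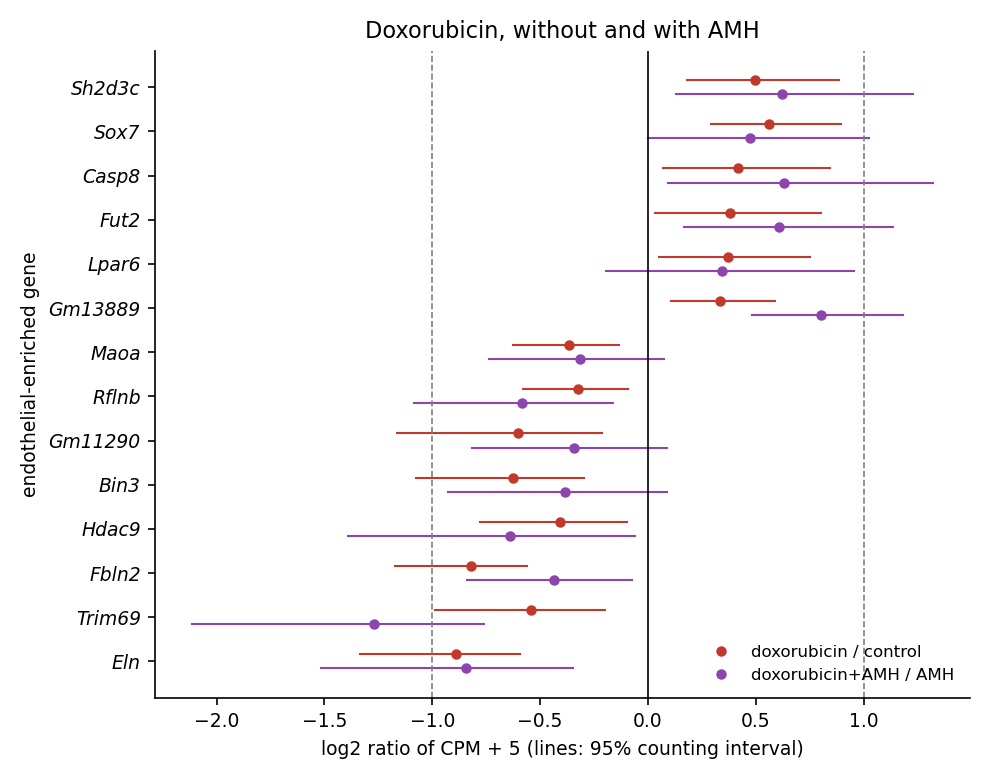
Log2 ratio of CPM + 5 (x axis) in members for 6 of the 8 highest and for the 8 lowest endothelial-enriched genes over both doxorubicin pairs, doxorubicin against control in red and doxorubicin+AMH against AMH in purple. Lines are 95% counting intervals of the plain CPM ratio and dashed lines mark 2-fold; all points of the upper 6 genes stay inside 2-fold and Eln is at -0.89 and -0.84.

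Arterial genes were lower than in control in the doxorubicin library and, by less outside the mixed sub-clusters, in the AMH library. Of the 14 arterial markers 13 were below control in all members with doxorubicin, and 13 also outside the mixed sub-clusters; with AMH these were 13 and 12. The summed level was 931 CPM in control, 575 with doxorubicin, 790 with doxorubicin+AMH and 605 with AMH. Vegfc, a growth factor for lymphatic vessels, stood at 165, 63.2, 170 and 90.1 CPM in that order, so the doxorubicin library was lowest and control and doxorubicin+AMH were close. Its log2 ratio of doxorubicin to control was -1.38 (-1.69 to -1.08), and -1.30 (-1.64 to -0.97) outside the mixed sub-clusters. Fbln5, an elastic fibre gene, stood at 83.7, 33.9, 56.7 and 68.5 CPM, a log2 ratio of -1.30 (-1.73 to -0.89), and -1.48 (-1.98 to -1.01) without the mixed cells. Edn1, the gene of the vessel-constricting peptide endothelin 1, stood at 54.4, 16.4, 43.9 and 53.5 CPM, a ratio of -1.73 (-2.34 to -1.16), and -1.93 (-2.68 to -1.24) without the mixed cells. In the pair with AMH the list did not repeat this: 9 of the 14 markers were higher in doxorubicin+AMH than in AMH, Vegfc had a log2 ratio of 0.92 (0.54 to 1.30), and Fbln5 -0.27 (-0.81 to 0.26), though -0.92 (-1.66 to -0.22) without the mixed cells. Of the 6 markers that passed the filter 2 were called lower for doxorubicin against control, with a median of -0.49, beside 0.974% of all genes; 0 were called lower in the pair with AMH, with a median of 0.32. For AMH against control 1 was called lower, beside 0.612% of all genes, and the median was -0.58. Outside the mixed sub-clusters 3 of the 8 that passed were called lower for doxorubicin against control (0.532% of all genes), with a median of -0.74, and 0 for AMH against control, with a median of -0.28, while the pair with AMH had a median of 0.02. The summed levels there were 1105, 680.3, 950.01 and 909 CPM. Of all genes that passed, 48.8% were above 0 for doxorubicin against control and 38.1% for AMH against control in members. The arterial sub-cluster 8 held 15 of 134 control members (11.2%), 3 of 110 with doxorubicin (2.73%), 3 of 61 with doxorubicin+AMH (4.92%) and 5 of 59 with AMH (8.47%). Control was highest and doxorubicin lowest both in these shares and in the list levels. The libraries with AMH stood in opposite order in the shares and the levels. Within that sub-cluster Vegfc stood at 1127 CPM in control, 252 with doxorubicin, 1410 with doxorubicin+AMH and 751 with AMH. Fewer arterial cells and less RNA per arterial cell cannot be told apart from so few cells.

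The second question is what AMH did, without doxorubicin (AMH against control) and with it (doxorubicin+AMH against doxorubicin). Amhr2, the AMH receptor, was scarce in members, at 9.30 CPM in control, 33.9 with doxorubicin, 9.63 with doxorubicin+AMH and 29.1 with AMH, against 61.5 to 77.7 CPM in all other cells. Over all libraries together most of the UMIs lay in mixed cells, though in control they were split nearly evenly. Outside the mixed cells Amhr2 had 11, 5, 3 and 0 UMIs in that order, or 8.30, 3.83, 7.29 and 0 CPM. The UMIs of a gene in cells that lack it can come from free RNA, whose part in these low levels was not tested. Members instead carried the BMP co-receptor gene Eng, 20.8-fold over other cells, at 448, 452, 271 and 326 CPM, and Acvrl1, the endothelial type 1 receptor for BMP9 and BMP10, 8.3-fold over other cells, at 65.1, 63.7, 62.1 and 40.4 CPM. Bmpr1b was at 50.02, 26.7, 143 and 86.4 CPM in members and at 9.05, 6.13, 21.9 and 23.8 CPM outside the mixed sub-clusters, below the 562 to 674 CPM of all other cells.

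SMAD target genes did not share 1 direction with AMH; 1 of the 8 listed had no UMI in control members. Id1, a target of BMP signalling that is strong in endothelium, stood at 526 CPM in control, 489 with doxorubicin, 472 with doxorubicin+AMH and 345 with AMH. The AMH library was lowest, with a log2 ratio to control of -0.61 (-0.78 to -0.44), and -0.84 (-1.07 to -0.63) outside the mixed sub-clusters; the ratio of doxorubicin+AMH to doxorubicin was -0.05 (-0.22 to 0.11). In all other cells Id1 was level, at 169, 149, 174 and 173 CPM. Id3 stood at 780, 852, 913 and 713 CPM, with log2 ratios of -0.13 (-0.25 to -0.01) and 0.10 (-0.02 to 0.22). Id2 stood at 169, 133, 139 and 168 CPM, with ratios of -0.01 (-0.27 to 0.25) and 0.07 (-0.25 to 0.38), beside 0.59 and 0.55 in all other cells. Smad7, the inhibitory SMAD, stood at 79.7, 97.1, 92.0 and 100 CPM, with ratios of 0.33 (-0.02 to 0.69) and -0.08 (-0.46 to 0.30), beside 0.69 and 0.64 in the other cells. Of the 8 target genes 5 passed the filter and none was called; the median was -0.01 for AMH against control and -0.05 for doxorubicin+AMH against doxorubicin, beside 0.11 and 0.23 for the same genes in the other cells. Outside the mixed sub-clusters the medians were -0.33 and 0.04, so the first depended on the members summed.

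AMH against control gave 33 genes called higher (0.918%) and 22 called lower (0.612%). Doxorubicin+AMH against doxorubicin gave 36 called higher (1.00%) and 31 called lower (0.863%). Outside the mixed sub-clusters AMH against control gave 21 higher (0.588%) and 28 lower (0.783%), and doxorubicin+AMH against doxorubicin 21 higher (0.588%) and 32 lower (0.895%). In all other cells the counts were 2 higher (0.0556%) and 13 lower (0.362%), and 1 higher (0.0278%) and 10 lower (0.278%). Called higher in both were 5 genes (0.139%), none of them endothelial-enriched: Inha, Ccl21a, Tenm4, Csmd1 and Bex4. Inha, the inhibin subunit made by granulosa cells, stood at 69.9, 79.7, 305 and 218 CPM in members beside 1027, 1129, 1836 and 1548 CPM in all other cells, so both AMH libraries were higher in both sets of cells. The whole granulosa list summed to 219, 269, 630 and 604 CPM in members, and its part in the Inha result was not tested. Ccl21a, a lymphatic chemokine with near-identical copies in the genome that make its count uncertain, had 95.1% of its UMIs in the AMH library in 1 cell. Without the mixed cells 3 genes were called higher in both pairs (0.0839%), Inha, the chemokine gene Cxcl1 and Gm26917, so Inha was the one gene on both lists.

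Called lower in both were 4 genes (0.111%): Thrsp, Prc1, Top2a and Cyp17a1. Thrsp, a regulator of fatty acid synthesis (chr7:97412938-97417730), was the endothelial-enriched one. It stood at 68.6 CPM in control, 79.2 with doxorubicin, 27.8 with doxorubicin+AMH and 25.4 with AMH, from 155, 154, 26 and 27 UMIs. Both libraries with AMH were below both without, with log2 ratios of -1.44 (-2.08 to -0.84) and -1.51 (-2.17 to -0.90). The ratios of Thrsp outside the mixed sub-clusters were -1.32 (-2.10 to -0.62) and -1.24 (-2.04 to -0.53), and in all members no cell held more than 15.4% of a library's Thrsp UMIs. Without the mixed cells 3 genes were called lower in both pairs (0.0839%), namely Thrsp, Prc1, a gene of cell division, and Gm34455. Thrsp was also a leading gene of sub-cluster 3. That sub-cluster held 16 cells in control (11.9% of members), 20 with doxorubicin (18.2%), 2 with doxorubicin+AMH (3.28%) and 6 with AMH (10.2%). Its share was thus close in control and AMH and differed between doxorubicin and doxorubicin+AMH. Whether the lower Thrsp came from fewer such cells or from less Thrsp per cell was not tested.

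Ranked by whichever AMH ratio lay nearer 0, the 8 lowest endothelial-enriched genes were Thrsp, Gpihbp1, Ifi44, Fzd4, Csgalnact1, Iigp1, Ccdc85a and Tcim. Here too, and for the 8 highest below, a shared sign was a condition of the choice, so agreement of the pairs tests nothing. Iigp1, an interferon-induced GTPase (chr18:60376027-60392634), stood at 519, 451, 294 and 332 CPM, with log2 ratios of -0.64 (-0.82 to -0.47) for AMH against control and -0.62 (-0.82 to -0.42) for doxorubicin+AMH against doxorubicin. Outside the mixed sub-clusters they were -1.02 (-1.27 to -0.78) and -0.45 (-0.70 to -0.21), and in all other cells -0.35 and 0.27. Fzd4, a Wnt and norrin receptor of vessels, stood at 93.8, 87.9, 45.0 and 59.2 CPM, with ratios of -0.67 (-1.10 to -0.25) and -0.97 (-1.49 to -0.47); without the mixed cells they were -0.44 (-0.99 to 0.07) and -0.79 (-1.46 to -0.18), the first including 0. Over the list of 22 interferon-response genes, which holds neither Iigp1 nor Ifi44, 19 were lower in AMH than in control and 21 lower in doxorubicin+AMH than in doxorubicin; outside the mixed sub-clusters these were 20 and 17. The medians of its 10 genes that passed the filter were -0.40 and -0.36, with 1 and 0 called lower, beside -0.08 and -0.04 for all 3594 genes, of which 0.612% and 0.863% were called lower and 38.1% and 45.05% were above 0 (47.8% and 44.2% outside the mixed sub-clusters).

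The 8 highest were Gm11290, Selp, Card19, Fut2, Adamts1, Slc6a6, Csrnp1 and Nfkbia. Adamts1, a secreted protease of the vascular matrix (chr16:85793827-85803113), stood at 327, 363, 529 and 402 CPM, with log2 ratios of 0.30 (0.12 to 0.47) and 0.54 (0.37 to 0.71), beside -0.20 and 0.06 in all other cells, and 0.51 (0.26 to 0.75) and 0.44 (0.18 to 0.69) without the mixed cells. Selp, the P-selectin that captures leukocytes on activated venous endothelium, stood at 47.8, 49.9, 69.6 and 67.6 CPM, with ratios of 0.50 (0.05 to 0.94) and 0.48 (0.00 to 0.95), and of 0.88 (0.42 to 1.33) and 0.96 (0.41 to 1.502) outside the mixed sub-clusters. Nfkbia, the inhibitor of NF-kappaB, stood at 442, 433, 521 and 519 CPM, with ratios of 0.23 (0.08 to 0.38) and 0.27 (0.10 to 0.43), beside 0.18 in both pairs in all other cells, and 0.37 (0.18 to 0.56) and 0.43 (0.22 to 0.64) without the mixed cells. Both AMH libraries were above both others for Adamts1, Selp and Nfkbia, by less than 2-fold.

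**Figure D5:**
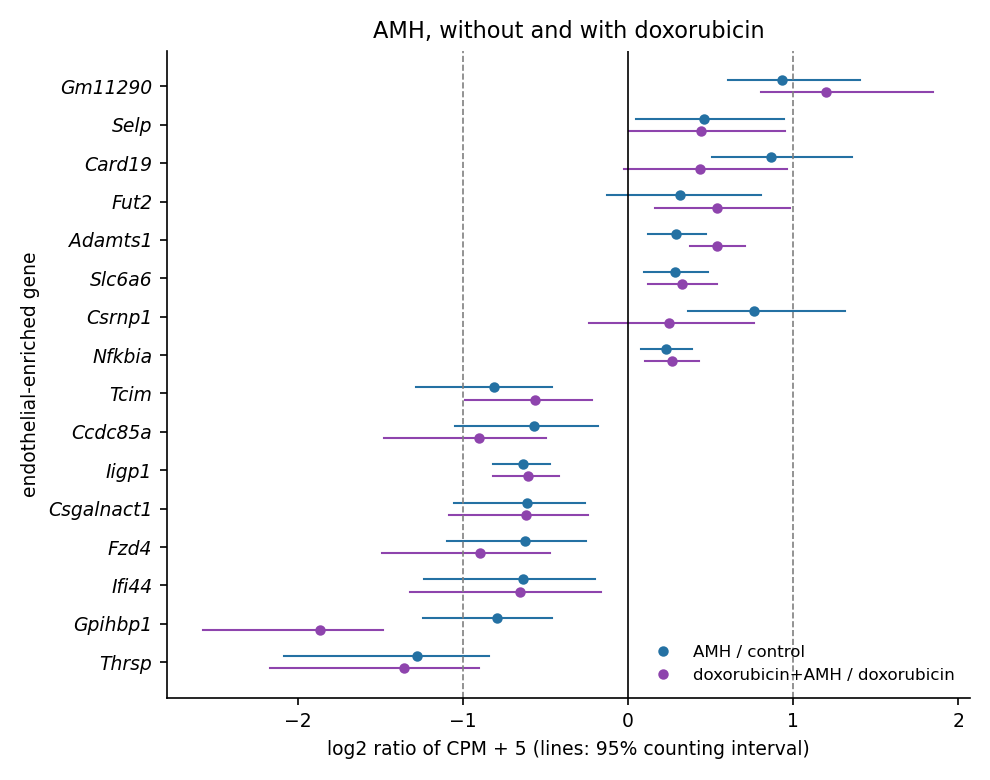
Log2 ratio of CPM + 5 (x axis) in members for the 8 highest and 8 lowest endothelial-enriched genes over both AMH pairs, AMH against control in blue and doxorubicin+AMH against doxorubicin in purple. Lines are 95% counting intervals of the plain CPM ratio and dashed lines mark 2-fold; Thrsp lies past 2-fold lower in both pairs, at -1.28 and -1.36.

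Most endothelial and vessel-wall genes were lower in the AMH library than in control, in members and in the other cells. The other cells include the 673 excluded cells with at least 4 endothelial genes. Their level of endothelial genes therefore also depends on how many such cells a library held, whose part was not tested. Of the 26 further endothelial genes 24 were below control with AMH, and 20 in doxorubicin+AMH against doxorubicin; outside the mixed sub-clusters these were 20 and 16. The medians of the 25 that passed were -0.38 and -0.25, with 0 called in either pair; outside the mixed sub-clusters they were -0.18 and -0.08, and in all other cells -0.39 and -0.24. Of all genes that passed, 38.1% and 45.05% were above 0 in these contrasts in members, and 47.8% and 44.2% outside the mixed sub-clusters, so the 16 of 26 was near the share of all genes. The 15 basement membrane genes, which encode the collagen and laminin sheet under the endothelium, were all below control with AMH and 12 were below doxorubicin in the doxorubicin+AMH library; outside the mixed sub-clusters these were 11 and 10. The medians of the 12 that passed were -0.39 and -0.34 in members, -0.15 and -0.21 outside the mixed sub-clusters, and -0.48 and -0.30 in all other cells. Col4a1 stood at 1347 CPM in control, 1510 with doxorubicin, 1175 with doxorubicin+AMH and 1055 with AMH. Its log2 ratio of AMH to control was -0.35 (-0.45 to -0.25) in all members, 0.03 (-0.10 to 0.16) outside the mixed sub-clusters and -0.69 in all other cells. Igfbp7, a secreted binding protein of vessel walls, stood at 5056, 6085, 4865 and 3607 CPM, with a ratio of AMH to control of -0.49 (-0.54 to -0.43), and -0.39 (-0.46 to -0.33) outside the mixed sub-clusters. The lower level with AMH was thus seen without the mixed cells for Igfbp7 but not for Col4a1. Kitl, the ligand that endothelial and granulosa cells present to Kit, was level at 524, 482, 503 and 515 CPM.

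The 16 junction genes, which seal the vessel wall, summed to 3108 CPM in control, 2902 with doxorubicin, 2803 with doxorubicin+AMH and 2629 with AMH; 14 were lower with AMH than in control, both in all members and outside the mixed sub-clusters, with a median of -0.28 over the 12 that passed and -0.13 outside the mixed sub-clusters. Doxorubicin+AMH against doxorubicin did not repeat this. There 6 of the 12 were above 0 and 6 below, with a median of 0.02, and 0.0083 outside the mixed sub-clusters. One of the 12, the gap junction gene Gja4, an arterial marker too, was called lower with AMH than in control and higher in doxorubicin+AMH than in AMH, at 64.6, 41.1, 77.1 and 23.5 CPM; outside the mixed sub-clusters it stood at 67.9, 41.4, 68.0 and 31.8 CPM and neither call was made. Of the 14 VEGF and angiopoietin genes, which steer vessel growth, 12 were lower with AMH than in control, and 9 outside the mixed sub-clusters, where 47.8% of all genes were above 0 (38.1% in all members), so the 9 of 14 was near the share of all genes. The list holds Kdr and Flt1, and the junction list Cdh5 and Cldn5, whose UMIs also chose the members. The growth receptor Kdr stood at 385, 414, 359 and 311 CPM, and Tek, the angiopoietin receptor, at 260, 227, 222 and 204 CPM. Of the 17 genes of leukocyte adhesion and recruitment, among them Selp, Icam1 and Vcam1, 11 were higher in doxorubicin+AMH than in doxorubicin, and 13 of the 16 detected outside the mixed sub-clusters, where the median of the 13 that passed was 0.66; of all genes 45.05% and 44.2% were above 0. AMH against control had medians of -0.17 for this list in all members and 0.29 outside the mixed sub-clusters, so its sign depended on the members summed. The 20 genes that tissue dissociation induces, such as Fos, Jun and Atf3, summed to 9879, 10748, 10224 and 10835 CPM in members, lowest in control; outside the mixed sub-clusters they summed to 9529, 8879, 8414 and 10242 CPM.

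Doxorubicin+AMH against doxorubicin was also read alone for endothelial-enriched genes. The 5 highest were Vegfc, Gm11290, Tgfb2, Glul and Tec. Vegfc stood at 170 against 63.2 CPM, a log2 ratio of 1.43 (1.08 to 1.78), and 1.57 (1.16 to 1.98) outside the mixed sub-clusters. Glul, the gene of glutamine synthetase, stood at 217 CPM in control, 145 with doxorubicin, 325 with doxorubicin+AMH and 146 with AMH, a ratio of 1.16 (0.92 to 1.40), and 1.07 (0.74 to 1.41) outside the mixed sub-clusters; in the other cells it was -0.07. The 5 lowest were Fabp4, Upk3b, Lgals7, Igfbp5 and Cd36. Upk3b and Lgals7 are on the epithelial list, and Igfbp5 and Lgals7 lead the mixed sub-cluster 6. These genes met the ratio for endothelial-enriched but are not endothelial markers. For Upk3b, Lgals7 and Igfbp5 1 cell held 86.5 to 93.6% of the UMIs with doxorubicin and 84.3 to 87.4% with AMH; outside the mixed sub-clusters Lgals7 stood at 0.77 and Igfbp5 at 2.27 on the log2(CPM + 5) scale, and Upk3b had no UMI in either library. Fabp4, a fatty acid carrier of capillaries, stood at 520 CPM in control, 1452 with doxorubicin, 42.8 with doxorubicin+AMH and 542 with AMH. The doxorubicin+AMH library was the lowest for Fabp4 and also for Cd36, at 77.0, 149, 12.8 and 66.7 CPM. Sub-cluster 11 held 10 of 134, 8 of 110, 0 of 61 and 2 of 59 members in the same order; by 3 counts of 61, 0 of 61 allows a share of up to 4.918%, and the upper end of the exact interval is 5.87%. One cell held 33.6% of Fabp4 UMIs in control, 40.6% with doxorubicin, 45.0% with doxorubicin+AMH and 93.9% with AMH.

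Dividing endothelial cells were found in every library. Of 28 genes of the G2 and M phases, 27 were higher with doxorubicin than in control outside the mixed sub-clusters, and 17 in all members, beside 50% and 48.8% of all genes. In AMH 26 of the 28 were lower than in control outside the mixed sub-clusters and 28 in all members, and in doxorubicin+AMH 28 and 26 were lower than in doxorubicin. Of all genes, 47.8% and 38.1% were above 0 for AMH against control and 44.2% and 45.05% for doxorubicin+AMH against doxorubicin. Of the 7 list genes that passed the filter, 5 were called lower for AMH against control (0.612% of all genes), and 2 outside the mixed sub-clusters (0.783%). In doxorubicin+AMH against AMH 7 of 7 were above 0, with a median of 0.78 and 3 called higher (0.779%). Outside the mixed sub-clusters 6 were above 0, with a median of 0.54 and 3 called (0.895%). Of all genes 53.3% and 47.1% were above 0 there. The summed level in all members was 1265, 1400, 863 and 434 CPM. Outside the mixed sub-clusters it was 1008 CPM in control, 1731 with doxorubicin, 870 with doxorubicin+AMH and 570 with AMH, while in all other cells it was 1073, 1140, 1529 and 1111 CPM. Few cells carried these sums: in all members 1 cell held 16.4%, 20.1%, 26.1% and 16.5% of the UMIs of the list. Counted by cell, the order was not the same. With each cell thinned to 2000 UMIs, which left out 3 to 5 members per library, 8.40% (4.27 to 14.5%) of control members held at least 3 UMIs of the list, against 14.2% (8.14 to 22.3%) with doxorubicin, 14.3% (6.38 to 26.2%) with doxorubicin+AMH and 9.09% (3.02 to 19.95%) with AMH. Unthinned these shares were 44.3%, 61.3%, 58.9% and 52.7%. The thinned intervals overlapped in all 4 libraries, and in the other cells the thinned shares were 10.8%, 12.2%, 16.4% and 13.8%. Top2a, the topoisomerase II of dividing cells, stood at 156, 190, 91.0 and 50.7 CPM in members, in 29, 31, 20 and 12 cells, and at 117, 200, 92.3 and 65.5 CPM outside the mixed sub-clusters.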

How the data were processed

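Droplet 3′ libraries of 4 pooled ovary samples were deposited as matrices of raw UMI counts per gene and cell, not normalized by the authors. Per the file headers they come from Cell Ranger 7.0.0. The submitters' processing notes name mm10, R 4.2.0 and Seurat 4.1.0. The files pair 32285 gene IDs with symbols. Whether intronic reads were counted is not given in the sources used here.

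UMIs of members were summed per library and divided by their total (CPM). Ratios are log2(CPM + 5) for calls (at least 2-fold, average of 50 CPM or more in the 4 libraries) and plain CPM ratios, with exact conditional binomial 95% intervals, where an interval is given. Levels have exact Poisson and shares exact Clopper-Pearson intervals; all cover counting error only, and no test between groups was made, since each group is 1 library. Member totals were 2259040, 1945654, 934299 and 1065055 UMIs (control, doxorubicin, doxorubicin+AMH, AMH). Members were clustered with scanpy 1.11.5, scikit-learn 1.9.0 and leidenalg 0.10.2 (1000 variable genes, 15 components, 15 neighbours, resolution 1.0). The automatic threshold of Scrublet marked 0, 1, 0 and 0 cells and had not worked, so no doublets were removed; an alternative left out the highest scores (11, 11, 9 and 5 members). The calculations were tested on simulated data.

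Named genes are list members and, among genes passing the filter, the 8 highest and 8 lowest endothelial-enriched genes by the ratio closer to 0 of the 2 pairs with matching sign, for doxorubicin and for AMH; the same without that condition, 5 and 5; the 5 highest and 5 lowest endothelial-enriched by doxorubicin+AMH against doxorubicin; the 20 highest over other cells; and 3 per sub-cluster. Ptprd, Gm26917, Gm34455 and genes called in both pairs outside these ranks were named after their values were seen, as was which list members are described singly. The members and lists were chosen with earlier results of these data known. Of 117 named genes 2 overlap an exon of another gene on the same strand in GENCODE M21 (among them Cyp11a1 with Gm17322), so their counts are uncertain. Some genes are not reported here. Promoters are from RefSeq. Alternatives changed the marker number, depth and mitochondrial limits, excluded genes, doublets, mural cells, cell weighting, scaling, pseudocount and filter.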

Additional observations from a re-analysis of the deposited data

Results flagged for a closer look

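Of all 3594 genes, 16 for doxorubicin and 17 for AMH had ratios that pointed in opposite directions, past 2-fold, in the pairs that share no library (3 and 5 of 3574 genes outside the mixed sub-clusters). The named genes among them are given here. The difference between the pairs was not tested, since each group is 1 library. For doxorubicin against control and for doxorubicin+AMH against AMH, on the log2(CPM + 5) scale, Fabp4 was at 1.47 and -3.52, Igfbp5 at 3.32 and -3.07, Lgals7 at 4.95 and -4.09, Upk3b at 3.82 and -4.83, Acta2 at -2.67 and 2.32, Myh11 at -2.21 and 2.75, and Tagln at -2.44 and 2.54. For AMH against control and for doxorubicin+AMH against doxorubicin, Igfbp5 was at 3.08 and -3.31, Lgals7 at 4.80 and -4.24, Upk3b at 4.39 and -4.25, Acta2 at -1.68 and 3.31, Myh11 at -2.87 and 2.09, Tagln at -1.53 and 3.45, the haemoglobin gene Hbb-bs at -1.36 and 7.84, the heat shock gene Hspa1b at 1.45 and -1.35, and the metallothionein gene Mt1 at 1.39 and -1.21. Upk3b had 0 UMIs in the doxorubicin+AMH members, so its ratios there depend on the added 5 CPM. Igfbp5, Lgals7 and Acta2 lead the mixed sub-cluster 6, Upk3b is on the epithelial list, and Acta2, Myh11 and Tagln are on the mural list. One cell held 93.6% of Igfbp5, 86.5% of Lgals7 and 90.9% of Upk3b UMIs of the doxorubicin members, and 84.3%, 87.4% and 86.3% of those of the AMH members. One cell held 76.6% of Acta2, 66.4% of Myh11 and 77.0% of Tagln UMIs of the control members, and 68.9%, 46.8% and 78.2% of those with doxorubicin+AMH, where 1 cell also held 99.75% of Hbb-bs UMIs.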

How the results depend on the processing

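No paired analysis was possible because each group is 1 library and the labels give no replicate numbers; no library was left out within a group. One alternative, without the mixed sub-clusters, was chosen after seeing the data. With median-of-ratios scaling the median of all genes in the 4 contrasts was -0.01 to 0.01, against -0.08 (AMH against control) to 0.02 as reported.

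Shares of members moved with the rule. With at least 3 markers they were 2.21%, 2.48%, 1.29% and 1.17% (control, doxorubicin, doxorubicin+AMH, AMH); with 1 UMI of each excluded gene allowed 2.15%, 2.20% and 1.01% (control, doxorubicin, AMH); thinned to 5000 UMIs 2.02% (control) and 1.06% (AMH). Both AMH libraries stayed below both others under each.

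Counts of called genes depended on members and filter. Doxorubicin against control, higher: 6 with at least 3 markers, 19 without the highest Scrublet scores, 42 with a mean of at least 20 CPM, 156 with no filter, 3 without mixed sub-clusters. Lower: 15 with at least 3 and 12 with at least 5 markers, 21 with 1 UMI of excluded genes, 17 without members with mural UMIs, 14 with cells weighted equally, 67 with 20 CPM, 164 with no filter, 19 without mixed sub-clusters. Doxorubicin+AMH against AMH, higher: 18, 13, 55, 52, 74 and 252 with at least 3 markers, 1 UMI of excluded genes, no mural UMIs, equal weights, 20 CPM and no filter; lower: 18, 112 and 398 with 1 UMI of excluded genes, 20 CPM and no filter. AMH against control, higher: 21 each with at least 3 markers, with 1 UMI of excluded genes and without mixed sub-clusters, 103 with 20 CPM, 269 with no filter; lower: 46 with at least 3 markers, 44 without mural UMIs, 67 with 20 CPM, 234 with no filter. Doxorubicin+AMH against doxorubicin, higher: 21 with 1 UMI of excluded genes and without mixed sub-clusters, 20 without the highest Scrublet scores, 72 with 20 CPM, 204 with no filter; lower: 55 with at least 3 markers, 91 with 20 CPM, 368 with no filter.

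The p53 list median for doxorubicin against control was 0.76 with at least 3 and 0.10 with at least 5 markers, 0.37 without mural UMIs, 0.22 with equal weights, 0.058 with 20 CPM, 0.36 with no filter and 0.093 without mixed sub-clusters. For doxorubicin+AMH against AMH it was 0.40 with at least 3 markers and -0.16 without mural UMIs, and for AMH against control -0.20 and 0.28. The BMP and SMAD target median was 0.13 (3 markers) and 0.14 (no mural UMIs) for doxorubicin+AMH against AMH, -0.22 (no mural UMIs) and -0.33 (without mixed sub-clusters) for AMH against control, and -0.36 without the highest Scrublet scores for doxorubicin+AMH against doxorubicin. The G2/M median of AMH against control, -1.52, was 0.015 with equal weights; the arterial median of doxorubicin against control stayed between -0.74 and -0.19.

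Over all alternatives, ratios that were at least 2-fold took the opposite sign 56 times, a ratio counting once for each alternative that turned it (with the G2/M median). Smaller ones also changed sign, such as the G2/M median of doxorubicin+AMH against AMH, 0.78, which reached -0.74. For doxorubicin+AMH against AMH: Hist1h1b -0.14 (5 markers), -0.51 (no mural UMIs) and -0.13 (no mixed); Kcnq5 -0.20 (3 markers), -0.29 (Scrublet) and -0.51 (no mixed); Cyp17a1 1.57 (3 markers), 0.0066 (5 markers) and 0.089 (no mixed); Cyp11a1 0.54 (3 markers), 0.48 (5 markers) and 0.57 (no mixed); Hsd3b1 0.38 and Aldh1a1 0.21 (3 markers); Fdx1 0.58 (3 markers), 0.35 (5 markers) and 0.063 (no mixed); Lgals7 0.57 (no mural UMIs) and 0.98 (no mixed); Igfbp5 0.087 and Amhr2 0.43 (no mural UMIs); Amhr2 1.30 (no mixed). For doxorubicin against control: Bex4 -0.18 (3 markers); Fabp4 -0.14 (equal weights); Upk3b -0.40 (5 markers) and -0.54 (no mixed); Igfbp5 -2.27 (5 markers), -0.25 (no mural UMIs) and -2.35 (no mixed); Amhr2 -0.29 (5 markers) and -0.59 (no mixed). For AMH against control: Cyp17a1 0.81 (no mural UMIs); Ccl21a -0.92 (5 markers); Csmd1 -0.17 (1 UMI of excluded genes); Top2a 0.28 and Birc5 0.24 (equal weights); Birc5 0.020 (3 markers); Upk3b -0.11 (3 markers), -0.58 (no mural UMIs) and -0.54 (no mixed); Lgals7 -1.44 and Igfbp5 -0.87 (3 markers); Amhr2 -0.61 (no mural UMIs) and -1.41 (no mixed). For doxorubicin+AMH against doxorubicin: Ccl21a -0.25 (no mixed); Csmd1 -0.25 (Scrublet); Tenm4 -0.064 (1 UMI of excluded genes); Lgals7 0.27 (5 markers) and 0.77 (no mixed); Igfbp5 1.91 (5 markers), 0.47 (no mural UMIs), 0.53 (equal weights) and 2.27 (no mixed); Amhr2 0.54 (5 markers) and 0.48 (no mixed). The cause was not tested.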
